A study of Mus musculus with 24 samples.

Results

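Tissue macrophages of the bone marrow were followed through 10 marker genes, *Vcam1*, *C1qa*, *C1qb*, *C1qc*, *Spic*, *Cd163*, *Adgre1*, *Mertk*, *Axl* and *Siglec1*, chosen as known markers of resident and erythroblastic island macrophages. They are 10 of the 54752 genes in the deposited table, found by their Ensembl identifiers in GENCODE vM21. RNA was measured in marrow cells of 24 male C57BL/6 mice with a library per mouse. The GC-WT group held 6 wild-type mice kept on the ground, the FL-WT group 6 wild-type mice that had spent 31 days on the International Space Station, the GC-KO group 6 Nrf2-knockout (Nrf2-KO) mice kept on the ground, and the FL-KO group 6 Nrf2-KO mice that had flown. The knockout is in all cells of the animal, so an effect cannot be placed in the macrophages. The flight mice also went through launch and landing and were sampled after their return to the ground. Flight and ground mice were not sampled in the same place, so place and return cannot be told apart from flight. Below, in flight and with flight refer to mice sampled after the return. The flight mice were young adults when they were moved to the launch site. Marrow cells of the pelvis and tibia were cryopreserved in CELLBANKER2 and their RNA was taken up in ISOGEN-LS without a sort, so the macrophages are a part of a bulk sample. In such a sample, fewer macrophages and less of a transcript in each macrophage cannot be told apart.

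Macrophages of the marrow sit at the centre of erythroblastic islands, where maturing red cell precursors attach to them, hand over their nuclei and receive iron. VCAM1 on the macrophage binds the integrin formed by the products of *Itga4* and *Itgb1* on erythroblasts, and sialoadhesin, the product of *Siglec1*, binds sialylated glycans. MERTK and AXL are receptor tyrosine kinases that recognise dying cells and expelled nuclei through the bridging ligands GAS6 and protein S, and C1q tags the same material. CD163 takes up haptoglobin-bound haemoglobin, and the transcription factor SpiC drives the iron-recycling programme of macrophages. *Adgre1* encodes F4/80, which eosinophils also carry, and *Vcam1* is also made by marrow stromal and endothelial cells.

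None of the 10 genes was a DEG in any comparison, but at a smaller fold change 5 fell with flight in wild-type and 8 in Nrf2-KO mice. Shares of this size were common among all genes, and most of these calls were lost when the libraries were scaled to each other, as given further on. DEGs were called in limma on log2(TPM + 1), where TPM is the length-corrected share of a transcript in its library, at a fold change of 2 or more with a Benjamini-Hochberg adjusted p below 0.1. Each wild-type or Nrf2-KO flight group was compared with its ground group, and the knockout was compared with wild type on the ground and in flight, and values below are in this order where no comparison is named. Lower DEGs made up 0.938%, 2.13%, 3.04% and 8.36% of the 12373 tested genes, and higher DEGs 0.0647%, 0%, 0.129% and 0.097%. Without the minimum fold change, 5 of the 10 members fell with flight in wild-type mice, where 39% of all tested genes fell and 0.994% rose. With flight in Nrf2-KO mice 8 of the 10 fell, against 53.1% of all tested genes, and 0.299% rose. With the knockout on the ground 2 of the 10 fell, against 42.9%, and 3.13% rose. With the knockout in flight 5 of the 10 fell, against 47.2%, and 1.91% rose. The counts at an unadjusted p under 0.05 in limma were also 5, 8, 2 and 5, against 41.7%, 52.2%, 43.4% and 47.3% of all genes. No member rose at TPM as deposited. The median log2 fold change of the 10 genes was -0.31, -0.50, -0.13 and -0.33, beside -0.24, -0.29, -0.22 and -0.25 for all tested genes. The members thus lay furthest under the other genes in FL-KO vs. GC-KO, by -0.21 on the log2 scale, and above them by 0.09 in GC-KO vs. GC-WT.

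**Figure D1:**
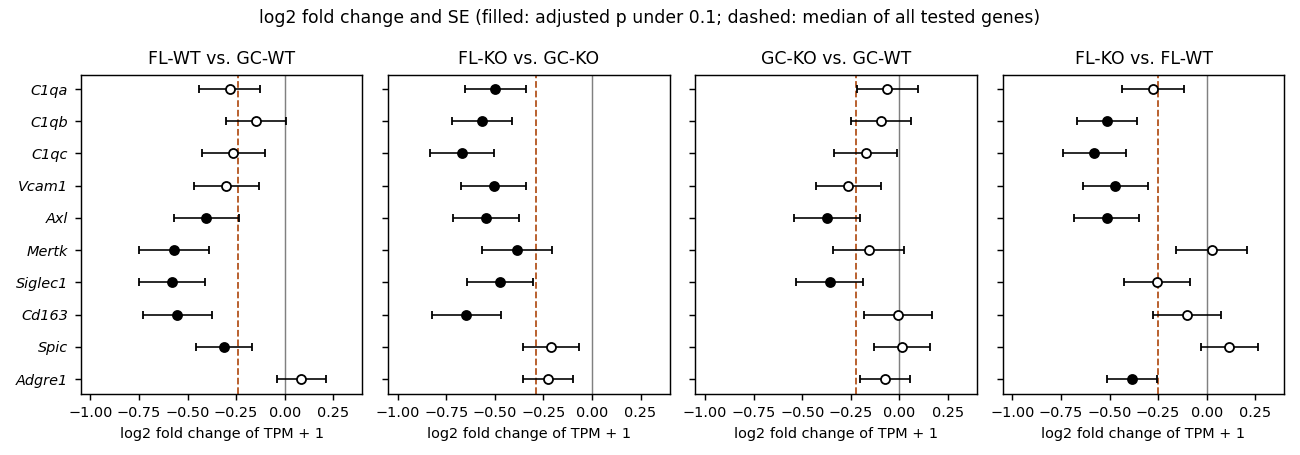
log2 fold change of TPM + 1 with its SE for the 10 genes (rows) in the 4 comparisons (panels). Filled points have an adjusted p under 0.1 in limma, and the dashed line is the median of all 12373 tested genes. The FL-KO vs. GC-KO panel has 8 filled points and the GC-KO vs. GC-WT panel 2.

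The libraries themselves bear on these values. *Nfe2l2*, the gene of Nrf2, ranged from 11.4 to 27.3 TPM over the wild-type mice and from 2.22 to 7.18 TPM over the Nrf2-KO mice. The all-gene medians above were below 0 in every comparison, and median-of-ratios scaling, which sets the libraries to a common median, moved them to between -0.01 and 0.04. The FL-KO library of mouse 9 stood apart from the other FL-KO libraries. It was the highest of its group in 9 of the 10 members and the lowest in *Adgre1*. It also had a summed TPM of 61.3 for 10 stromal genes, beside 14.4 to 27.9 in the other FL-KO mice, and of 335.5 for 9 eosinophil genes, beside 888.5 to 1214 in the others. Leaving it out removes the highest FL-KO value of those 9 members, which by itself makes their drops larger. The values without this mouse, here and below, thus show how far a drop rests on 1 library and do not strengthen it. Without this mouse, 9 of the 10 members fell with flight in the Nrf2-KO mice, with a median of -0.60, and 7 of the 10 with the knockout in flight, with a median of -0.37. *Spic* was gained in the first, and *C1qa* (-0.36) and *Siglec1* (-0.38) in the second. The share of all tested genes that fell without this mouse is not given, so these counts have no background.

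The C1q genes are neighbours. *C1qb* (chr4:136880129-136886187), *C1qc* (chr4:136889804-136893065) and *C1qa* (chr4:136895917-136898803) lie on the minus strand of GRCm38 within 18.7 kb, and each gives 1 of the chains of the C1q molecule. They are short genes, with longest transcripts of 1040 to 1203 nt beside a median of 2990.5 nt over the tested genes, and rich in GC, at 57.4% to 59.5% beside 49.1%. The other members are longer. *Siglec1* (chr2:131069220-131086765, minus) has a transcript of 6387 nt, *Cd163* (chr6:124304656-124330527, plus) of 4443 nt, *Mertk* (chr2:128698956-128802894, plus) of 4302 nt, *Axl* (chr7:25757273-25788705, minus) of 4265 nt and *Vcam1* (chr3:116109949-116129688, minus) of 4088 nt. *Adgre1* (chr17:57358691-57483527, plus) and *Spic* (chr10:88674772-88685015, minus) have transcripts of 3238 and 2290 nt. *Mertk* overlaps the antisense gene *Gm14011* and *Vcam1* the antisense gene *Gm43109*. The library kit keeps the strand, but whether the counting used it is not given in the sources used here.

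Promoters were at hand for 6 of the 10 genes, as 250 bases before to 50 after the RefSeq start on GRCm38.p6. Those of *C1qb* and *C1qc* are shown because these 2 genes had no overlap between flown and ground Nrf2-KO mice, and that of *Spic* because its product belongs to the PU.1 family of factors. All 3 lie on the minus strand and are written in the direction of the gene. They are at chr4:136886151-136886450 for *C1qb*, chr4:136892865-136893164 for *C1qc* and chr10:88682974-88683273 for *Spic*. The RefSeq starts of *C1qc* and *Spic* lie inside their GENCODE genes, so part of the *C1qc* window and all of the *Spic* window lie within the gene. Both strands were searched for TGACNNNGC, the core of the antioxidant response element that Nrf2 and Bach1 bind with small Maf proteins, for GAGGAAGT of the PU.1 family, and for AGGAAGT, which lies within GAGGAAGT and was added after the promoters had been read. Capitals mark the matches, all of which read on the opposite strand.
C1qb: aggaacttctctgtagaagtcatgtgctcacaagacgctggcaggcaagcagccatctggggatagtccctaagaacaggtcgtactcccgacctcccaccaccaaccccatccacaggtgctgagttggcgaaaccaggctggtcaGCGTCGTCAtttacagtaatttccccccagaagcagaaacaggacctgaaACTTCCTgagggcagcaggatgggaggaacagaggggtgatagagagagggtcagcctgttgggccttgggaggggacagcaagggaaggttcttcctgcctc
C1qc: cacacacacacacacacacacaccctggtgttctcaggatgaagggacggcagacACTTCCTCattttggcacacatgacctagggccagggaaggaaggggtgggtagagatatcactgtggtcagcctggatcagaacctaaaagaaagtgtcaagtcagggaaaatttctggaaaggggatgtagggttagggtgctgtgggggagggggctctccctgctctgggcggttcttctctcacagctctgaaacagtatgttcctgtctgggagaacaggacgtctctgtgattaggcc
Spic: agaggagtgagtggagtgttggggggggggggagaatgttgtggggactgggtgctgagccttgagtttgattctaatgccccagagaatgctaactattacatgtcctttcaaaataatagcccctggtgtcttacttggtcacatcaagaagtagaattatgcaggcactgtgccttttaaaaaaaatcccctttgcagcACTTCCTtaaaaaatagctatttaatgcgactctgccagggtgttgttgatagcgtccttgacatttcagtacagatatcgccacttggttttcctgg
TGACNNNGC matched in *C1qb* alone, from position -103 relative to the start, and 12.4% of 32851 RefSeq promoters of this length hold it. GAGGAAGT matched in *C1qc* alone, from -195, and 3.20% of promoters hold it. AGGAAGT matched in *C1qb* from -53, in *C1qc* from -195 and in *Spic* from -48, and 9.35% of promoters hold it. These matches describe the letters only and do not show that a factor binds there.

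The levels of the 10 genes, compared per transcript length as TPM, are given in the order of their means. Over all 24 mice, *C1qb* had a mean of 17.4 TPM, *Vcam1* 16.6 TPM, *C1qa* 14.4 TPM and *C1qc* 11.9 TPM. *Adgre1* followed at 7.32 TPM and *Axl* at 5.82 TPM. *Cd163* had 2.04 TPM, *Spic* 1.996 TPM, *Mertk* 1.35 TPM and *Siglec1* 1.18 TPM. The median tested gene had 3.64 TPM. Genes of like mean overlapped in their ranges over mice in every group, and genes further apart in the order also overlapped in some. In FL-KO mice the lowest *Axl* value, 2.52 TPM, was under the highest *Cd163* and *Spic* values, 2.56 and 2.91 TPM, and in FL-WT mice the lowest *C1qc* value, 9.28 TPM, was under the highest *Adgre1* value, 10.4 TPM. All 10 passed the filter of more than 1 TPM in at least 1 library. *Siglec1* was above 1 TPM in 13 libraries, *Mertk* in 15 and *Cd163* in 20, and the other 7 genes were in all 24.

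**Figure D2:**
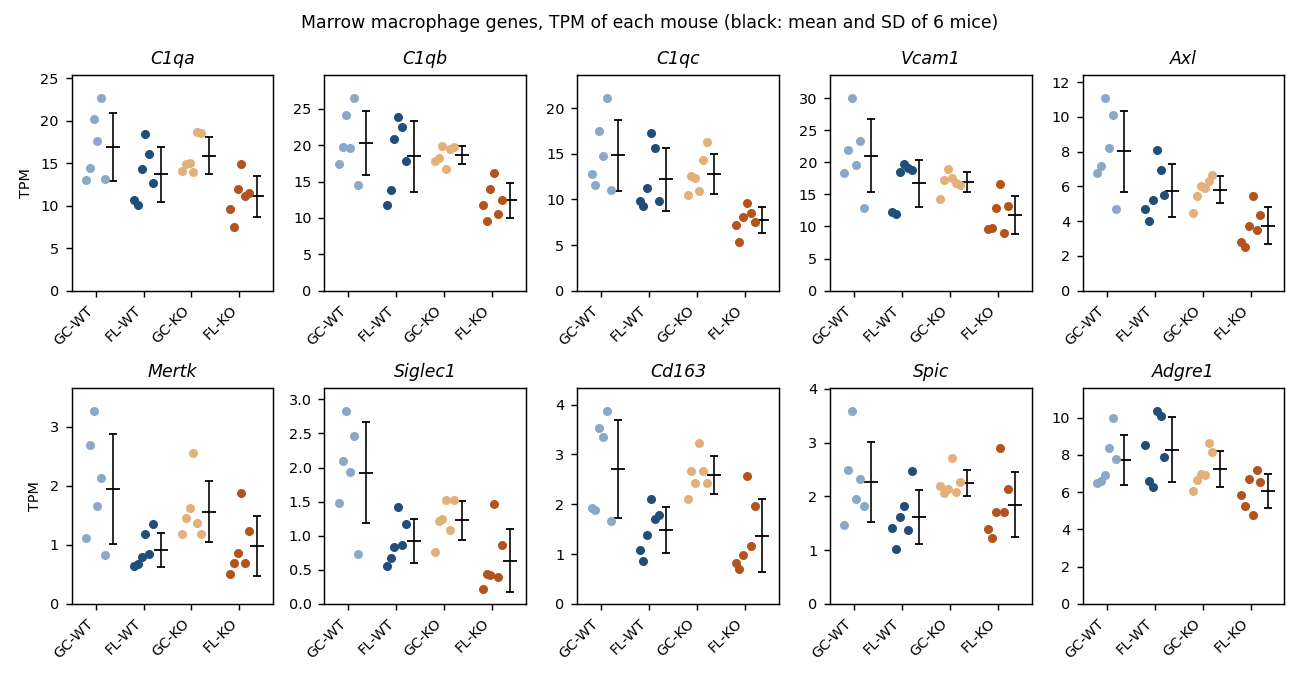
TPM (y axis, from 0) of each mouse for the 10 genes, by group, with the mean and SD of 6 mice in black. The FL-KO mice lie between 5.37 and 9.56 TPM for *C1qc*, under all GC-KO mice at 10.5 TPM and above.

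*C1qc* was lower in all flown than in all ground Nrf2-KO mice. It ranged from 11.04 to 21.2 TPM in GC-WT mice with a median of 13.8 TPM, and from 9.28 to 17.3 TPM in FL-WT mice with a median of 10.6 TPM. In Nrf2-KO mice it ranged from 10.5 to 16.3 TPM on the ground (median 12.5 TPM) and from 5.37 to 9.56 TPM in flight (median 7.79 TPM). The wild-type groups overlapped. On the log2 scale it fell by 0.67 ± 0.16 (SE) in FL-KO vs. GC-KO, with an adjusted p of 0.00286 in limma, to 0.601 times the mean TPM. Against FL-WT mice it fell by 0.58 ± 0.16 (SE, adjusted p = 0.005), with 5 of the 6 FL-KO mice under all FL-WT mice. Leaving out FL-KO mouse 9 gave drops of 0.73 and 0.64.

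*C1qb* behaved likewise in the Nrf2-KO mice. It lay between 16.7 and 19.8 TPM in GC-KO mice (median 18.9 TPM) and between 9.52 and 16.2 TPM in FL-KO mice (median 12.1 TPM), without overlap. Over all tested genes, 18.4% were lower without overlap here, and *C1qb* and *C1qc* were the only members that were. In the other comparisons 4.19%, 9.15% and 20.6% of genes and 0 members were. The drop of *C1qb* was 0.57 ± 0.16 (SE, adjusted p = 0.00645), and 0.64 without FL-KO mouse 9. Against FL-WT mice it fell by 0.51 ± 0.16 (SE, adjusted p = 0.00821). In wild-type mice it lay between 14.5 and 26.5 TPM on the ground (median 19.7 TPM) and between 11.8 and 23.9 TPM in flight (median 19.3 TPM). These groups overlapped, and the difference was -0.15 ± 0.16 (SE, adjusted p = 0.465) on the log2 scale.

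*C1qa* lay between 13.1 and 22.7 TPM in GC-WT mice (median 16.1 TPM), 10.1 and 18.4 TPM in FL-WT mice (median 13.5 TPM), 13.99 and 18.7 TPM in GC-KO mice (median 15.03 TPM) and 7.52 and 14.9 TPM in FL-KO mice (median 11.3 TPM). It fell in FL-KO vs. GC-KO by 0.50 ± 0.16 (SE, adjusted p = 0.0155), and 5 of the 6 FL-KO mice were under all GC-KO mice. The drop was 0.58 without FL-KO mouse 9. None of the C1q genes passed the test for flight in wild-type mice or for the knockout on the ground. Of the summed TPM of the C1q genes in a library, which does not depend on scaling between libraries, *C1qc* held 28.4% ± 1.66 (SD, n = 6) in GC-WT, 27.5% ± 2.56 among FL-WT mice, 26.95% ± 1.71 among GC-KO mice and 24.8% ± 1.78 among FL-KO mice. The share of *C1qa* was 32.4% ± 1.43, 31.0% ± 1.11, 33.5% ± 1.25 and 35.4% ± 1.49 in the same order. The ranges of both shares overlapped between FL-KO and GC-KO mice, and these shares were looked at after the values of the genes were known, so no test is given.

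Among the C1q partners in the classical complement list, the gene of the central component *C3* moved with genotype more than any C1q gene did. The mean of *C3* was 59.4 TPM among GC-WT mice, 50.7 TPM among FL-WT mice, 18.8 TPM among GC-KO mice and 9.64 TPM among FL-KO mice. Of 8 listed genes 5 were tested, and 3, 5, 4 and 4 of them fell, against 39%, 53.1%, 42.9% and 47.2% of all tested genes. These shares are the background at TPM as deposited for all lists that follow. Counts under other scalings have another background, given further on with the scalings. With median-of-ratios scaling 2, 3, 3 and 3 fell. *C3* fell by 1.73 ± 0.30 (SE, adjusted p = 0.000411) in GC-KO vs. GC-WT. *Cd93*, a surface protein first described as a C1q receptor, fell from a mean of 11.1 TPM in GC-WT to 4.67 TPM in GC-KO mice, and *Calr*, the chaperone calreticulin, was the most abundant of the list at 92.5 TPM in GC-WT mice. *C1ra*, *C1s1* and *C2*, which encode the proteases next to C1q, had group means of at most 0.682 TPM and did not pass the filter.

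*Vcam1*, the adhesion molecule of the island, was between 12.9 and 30.1 TPM in GC-WT mice (median 20.8 TPM) and between 11.9 and 19.8 TPM in FL-WT mice (median 18.6 TPM). In Nrf2-KO mice it was between 14.3 and 19.0 TPM on the ground (median 17.0 TPM) and between 8.97 and 16.6 TPM in flight (median 11.3 TPM). The FL-KO mice were the lowest group, with 5 of 6 under all GC-KO mice. It fell by 0.51 ± 0.17 (SE, adjusted p = 0.0189) in FL-KO vs. GC-KO and by 0.47 ± 0.17 (SE, adjusted p = 0.0231) in FL-KO vs. FL-WT, and was at -0.30 ± 0.17 (SE, adjusted p = 0.166) for flight in wild-type mice. Leaving out FL-KO mouse 9 gave drops of 0.60 and 0.57.

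On the erythroblast side of that contact, *Itga4* fell in flight in both genotypes, from a mean of 18.8 to 11.1 TPM in wild-type and from 15.7 to 8.82 TPM in Nrf2-KO mice. Its changes were -0.73 ± 0.17 (SE, adjusted p = 0.00366) and -0.76 ± 0.17 (SE, adjusted p = 0.00162). *Itgb1*, of the other chain of that integrin, fell in flight in Nrf2-KO mice only. Its changes in limma were -0.25 (adjusted p = 0.217) in wild-type and -0.62 (adjusted p = 0.00421) in Nrf2-KO mice. With median-of-ratios scaling they were 0.08 (adjusted p = 0.542) and -0.21 (adjusted p = 0.07). *Icam4*, a red cell adhesion molecule that binds integrins on the macrophage, was a DEG in FL-KO vs. GC-KO, from 12.3 to 5.11 TPM, and fell by 0.93 ± 0.15 (SE, adjusted p = 9.96e-05) in FL-WT vs. GC-WT. Of the 7 genes of island contacts, all tested, 2, 5, 4 and 5 fell in the 4 comparisons. With median-of-ratios scaling 2, 3, 4 and 4 fell and 1, 0, 1 and 0 rose, and *Itga4* (-0.40 and -0.36) and *Icam4* (-0.61 and -0.74) still fell in both flight comparisons. *Selplg* and *Spn*, sialylated surface proteins of leukocytes, were DEGs in FL-KO vs. FL-WT, and *Selplg* was the most abundant of the list at 79.9 TPM in GC-WT mice.

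*Axl*, a receptor for dying cells, fell in all 4 comparisons at TPM as deposited, the only member to do so. It ranged from 4.71 to 11.1 TPM in GC-WT mice (median 7.67 TPM) and from 4 to 8.11 TPM in FL-WT mice (median 5.37 TPM). The GC-KO mice had 4.45 to 6.66 TPM (median 5.97 TPM) and the FL-KO mice 2.52 to 5.42 TPM (median 3.60 TPM). Its log2 fold changes were -0.40 ± 0.17 (SE, adjusted p = 0.0716) for flight in wild-type mice, -0.55 ± 0.17 (SE, adjusted p = 0.0133) for flight in Nrf2-KO mice, -0.37 ± 0.17 (SE, adjusted p = 0.0832) for the knockout on the ground and -0.52 ± 0.17 (SE, adjusted p = 0.0142) for the knockout in flight. The groups overlapped in each, and the first and the third call were lost when any of 6 and any of 7 of the 12 libraries was left out. Without FL-KO mouse 9 the second and the last became -0.64 and -0.61. None of the 4 calls held with median-of-ratios scaling. After removal of the GC content and length trends *Axl* was above 0 in both comparisons of genotypes.

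At TPM as deposited, but not with median-of-ratios scaling, *Mertk* fell with flight in both genotypes. It ranged from 0.83 to 3.27 TPM in GC-WT (median 1.90 TPM) and from 0.64 to 1.36 TPM in FL-WT mice (median 0.825 TPM), and from 1.19 to 2.56 TPM in GC-KO (median 1.42 TPM) and 0.50 to 1.88 TPM in FL-KO mice (median 0.785 TPM). It fell by 0.57 ± 0.18 (SE, adjusted p = 0.0221) in wild-type mice, to 0.471 times the mean TPM, and by 0.39 ± 0.18 (SE, adjusted p = 0.0825) in Nrf2-KO mice. With FL-KO mouse 9 left out, the latter was 0.50, and leaving out any of 7 of the other libraries lost its call. The genotypes differed by -0.16 ± 0.18 (SE, adjusted p = 0.519) on the ground and by 0.02 ± 0.18 (SE, adjusted p = 0.934) in flight, neither past the threshold. At levels near 1 TPM the added pseudocount of 1 makes such fold changes smaller than the ratios of TPM.

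Their ligand *Gas6* fell in flight as well, from a mean of 4.08 to 2.66 TPM in wild-type mice (-0.47 ± 0.18, SE, adjusted p = 0.045) and from 3.47 to 1.95 TPM in Nrf2-KO mice (-0.63 ± 0.18, SE, adjusted p = 0.00699). Neither call held with median-of-ratios scaling, at -0.20 (adjusted p = 0.439) and -0.34 (adjusted p = 0.154). *Tyro3*, the remaining receptor of the family, had group means of at most 0.063 TPM and was not tested. Of 15 genes of dead-cell clearance 12 were tested, and 8, 11, 6 and 7 of them fell in the 4 comparisons without any DEG. With median-of-ratios scaling 0, 2, 5 and 4 fell and 0, 0, 1 and 1 rose, and after removal of the GC content and length trends 4 rose in each comparison of genotypes. *Cd36*, a scavenger receptor and the most abundant of the list over the Nrf2-KO mice, rose with the knockout, from a mean of 31.9 to 46.2 TPM on the ground (0.54 ± 0.17, SE, adjusted p = 0.0122), also with median-of-ratios scaling (0.88). Its drops in flight, by 0.61 and 0.70, were not called with that scaling.

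At TPM as deposited *Siglec1*, the gene of sialoadhesin, fell with flight in both genotypes, and with median-of-ratios scaling in wild-type mice only. It ranged from 0.74 to 2.83 TPM in GC-WT (median 2.02 TPM) and from 0.55 to 1.42 TPM in FL-WT mice (median 0.855 TPM). In Nrf2-KO mice it ranged from 0.76 to 1.53 TPM on the ground (median 1.23 TPM) and from 0.22 to 1.46 TPM in flight (median 0.435 TPM). It fell by 0.58 ± 0.17 (SE, adjusted p = 0.0154) in FL-WT vs. GC-WT, with 5 of the 6 GC-WT mice above all FL-WT mice. The drop was 0.47 ± 0.17 (SE, adjusted p = 0.0293) in FL-KO vs. GC-KO and 0.36 ± 0.17 (SE, adjusted p = 0.0979) in GC-KO vs. GC-WT. The last call was lost when any of 8 of the 12 libraries was left out. Without FL-KO mouse 9 the drop with flight in Nrf2-KO mice was 0.60.

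At TPM as deposited *Cd163*, the haemoglobin scavenger, fell in flight in both genotypes, and with median-of-ratios scaling in Nrf2-KO mice only. It ranged from 1.66 to 3.87 TPM in GC-WT mice (median 2.63 TPM) and from 0.86 to 2.10 TPM in FL-WT mice (median 1.55 TPM). The GC-KO mice had 2.11 to 3.23 TPM (median 2.55 TPM) and the FL-KO mice 0.70 to 2.56 TPM (median 1.08 TPM). The drops were 0.55 ± 0.18 (SE, adjusted p = 0.0232) in wild-type mice and 0.65 ± 0.18 (SE, adjusted p = 0.00638) in Nrf2-KO mice, which are ratios of mean TPM of 0.55 and 0.529. Without FL-KO mouse 9 the latter drop was 0.77. The genotypes differed by -0.01 ± 0.18 (SE, adjusted p = 0.984) on the ground. In flight the difference was -0.10 ± 0.18 (SE, adjusted p = 0.695).

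*Spic* ranged from 1.47 to 3.59 TPM in GC-WT mice (median 2.14 TPM) and from 1.02 to 2.47 TPM in FL-WT mice (median 1.51 TPM). The GC-KO mice had 2.07 to 2.71 TPM (median 2.17 TPM) and the FL-KO mice 1.22 to 2.91 TPM (median 1.72 TPM). Its drop in FL-WT vs. GC-WT, by 0.31 ± 0.14 (SE, adjusted p = 0.0982), was lost when any of 8 of the 12 libraries was left out. In FL-KO vs. GC-KO it was at -0.21 ± 0.14 (SE, adjusted p = 0.231), and without FL-KO mouse 9 at -0.31 ± 0.14 (SE, adjusted p = 0.0809). Of 9 heme and iron recycling genes 8 were tested, and 2, 5, 2 and 5 of them fell in the 4 comparisons. With median-of-ratios scaling 1, 1, 1 and 2 were lower and 4, 2, 4 and 3 higher. *Hmox1*, the heme-degrading enzyme, fell with the knockout, from a mean of 35.7 to 24.7 TPM on the ground, and *Slc40a1*, the iron exporter ferroportin, fell in FL-KO vs. GC-KO, from 23.4 to 16.6 TPM (-0.49 ± 0.15, SE, adjusted p = 0.0146). Neither call held with that scaling, at -0.13 (adjusted p = 0.527) and -0.08 (adjusted p = 0.416). *Hp*, which encodes haptoglobin, was a DEG in FL-KO vs. FL-WT and *Ftl1* was the most abundant of the list at 1072 TPM in GC-WT mice.

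*Adgre1*, the gene of F4/80, had another pattern. It ranged from 6.50 to 10.01 TPM in GC-WT mice (median 7.37 TPM) and from 6.27 to 10.4 TPM in FL-WT mice (median 8.21 TPM). The GC-KO mice had 6.05 to 8.62 TPM (median 6.95 TPM) and the FL-KO mice 4.76 to 7.18 TPM (median 6.21 TPM). It was the only member whose mean was higher in FL-WT than in GC-WT mice, at 0.09 ± 0.13 (SE, adjusted p = 0.611), and the only comparison it passed was FL-KO vs. FL-WT, at -0.39 ± 0.13 (SE, adjusted p = 0.0151), which was -0.33 without FL-KO mouse 9. Eosinophil genes were read beside it, since eosinophils also carry F4/80. Their summed TPM was 1510 to 2014 in FL-WT mice and 873.7 to 1422 in GC-WT mice, without overlap, and 1006 to 1477 in GC-KO and 335.5 to 1214 in FL-KO mice. Of the 9 eosinophil genes 5 rose with flight in wild-type mice, 4 fell with flight in Nrf2-KO mice and 7 fell with the knockout in flight. With median-of-ratios scaling, quantile normalization and the trends removed, the 5 rises became 9, 8 and 9, the 4 falls became 0 in each and the 7 falls 5, 6 and 7. Among them the granule genes *Ear6*, *Epx* and *Ear1* had the largest changes with the knockout in flight, at -1.25, -1.22 and -1.15, and *Prg2*, the major basic protein gene, was the most abundant. Their part in the values of *Adgre1* was not tested.

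The difference between flight and ground was also compared between the genotypes. For the interaction of flight and genotype 2 of the 12373 tested genes (0.0162%) and 0 of the 10 members had an adjusted p under 0.1, and 0 members had an unadjusted p under 0.05 in limma. The members nearest to it were *C1qb* at -0.42 ± 0.22 (SE, unadjusted p = 0.0668 and adjusted p = 1 in limma), *C1qc* at -0.40 ± 0.23 and *Adgre1* at -0.31 ± 0.18 (SE for both). That *C1qb* and *C1qc* passed in Nrf2-KO and not in wild-type mice is therefore not shown to be a difference between the genotypes.

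The scaling of the libraries decided most of the calls, and those of all genes moved as well. At an unadjusted p under 0.05 in limma, 5155, 6456, 5373 and 5857 of the 12373 tested genes were lower at TPM as deposited. On the other side, 136, 36, 407 and 236 were higher. With median-of-ratios scaling 2250, 2826, 3383 and 3749 were lower and 2433, 2424, 3593 and 4189 higher. For members and lists, scaled counts are at an adjusted p under 0.1, for which no share of all genes is given. With median-of-ratios scaling, 1 member was lower and 1 higher with flight in wild-type mice, 2 were lower with flight in Nrf2-KO mice, 3 were higher with the knockout on the ground and 1 was higher with the knockout in flight. *Cd163* (-0.40) and *C1qc* (-0.28) were the lower ones in Nrf2-KO mice, and *Siglec1* (-0.36) was the lower one in wild-type mice. *Adgre1* was the member higher with flight in wild-type mice, at 0.39 with this scaling, 0.39 with quantile normalization and 0.36 after the trends with GC content and length were removed. *Spic* was higher with the knockout in flight, at 0.41 under the former scaling and 0.46 under quantile normalization. With the knockout on the ground the sign turned for 7 of the 10 members under either scaling, and *C1qa*, *Spic* and *Adgre1* rose, by 0.27, 0.25 and 0.24 under median-of-ratios scaling. With flight in Nrf2-KO mice the C1q genes, *Vcam1*, *Axl*, *Cd163* and *Mertk* stayed below 0 in all of these settings, *Siglec1* turned to 0.11 after removal of the trends, *Adgre1* was above 0 in each and *Spic* in the 2 scalings. After removal of the trends *Siglec1*, *Mertk* and *Cd163* were higher with the knockout in flight, at 0.58, 0.44 and 0.31. Of all tested genes, 2078, 2359, 3425 and 3519 were lower under quantile normalization and 2257, 2906, 3633 and 4552 higher, at an unadjusted p under 0.05 in limma. With the trends removed 2100, 2096, 2839 and 2970 were lower and 2501, 2732, 3013 and 3637 higher.

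**Figure D3:**
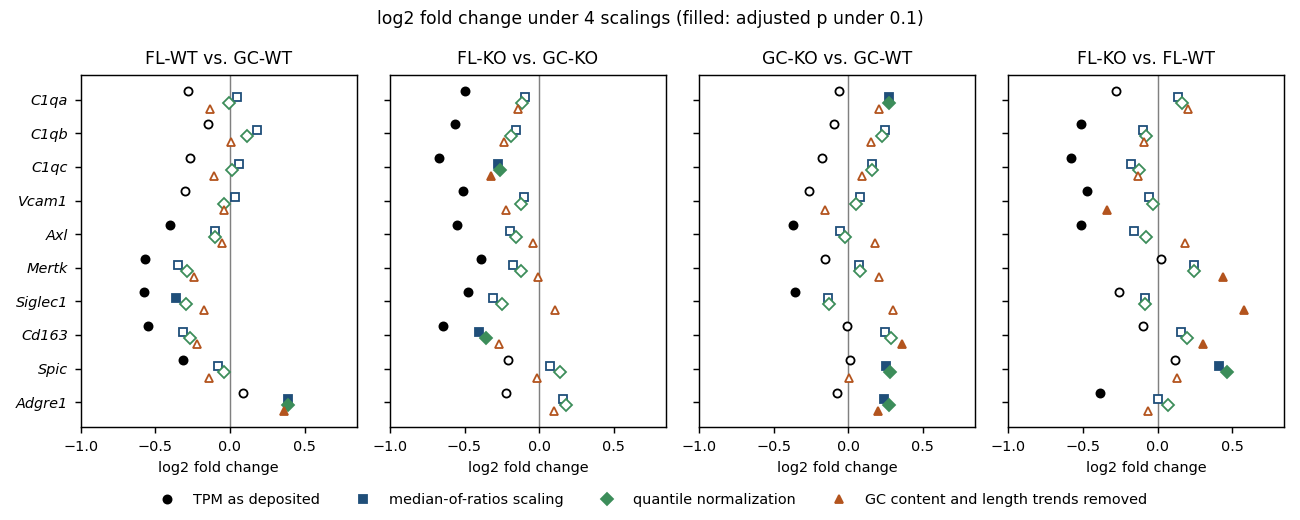
log2 fold change of the 10 genes (rows) in the 4 comparisons (panels) at TPM as deposited, under median-of-ratios scaling, under quantile normalization and after removal of the trends with GC content and length. Filled symbols have an adjusted p under 0.1. In the FL-KO vs. GC-KO panel the *C1qc* symbols are filled and below 0 in all 4 settings.

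Several other macrophage genes were lower in Nrf2-KO mice. Of 16 listed genes 12 were tested, and 3, 7, 7 and 9 of them fell in the 4 comparisons. *Csf1r*, the receptor for macrophage colony-stimulating factor, fell from a mean of 15.97 TPM in GC-WT to 6.42 TPM in GC-KO mice and from 12.5 TPM in FL-WT to 2.77 TPM in FL-KO mice. *Cd68*, the most abundant of the list, ranged from 13.8 to 28.4 TPM in GC-WT and from 7.42 to 19.2 TPM in GC-KO mice, and fell by 0.78 ± 0.21 (SE, adjusted p = 0.0042). *Sdc3* and *Cd5l* were DEGs in FL-KO vs. FL-WT. The median of the list for the knockout on the ground was -0.43, beside -0.13 for the 10 members and -0.22 for all genes. After median-of-ratios scaling, 0, 3, 5 and 6 genes fell and 3, 1, 1 and 1 rose. *Marco*, *Vsig4*, *Folr2* and *Lyve1*, markers of macrophages in other tissues, had group means of at most 0.548 TPM and were not tested.

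*Spi1*, the gene of PU.1, was also lower in Nrf2-KO mice, with 44.1 to 60.8 TPM in ground and 33.8 to 84.8 TPM in flown wild-type mice, and 20.6 to 42.5 TPM and 16.01 to 24.4 TPM in Nrf2-KO mice. It fell by 0.88 ± 0.19 (SE, adjusted p = 0.00116) in GC-KO vs. GC-WT, with no overlap, and was a DEG in FL-KO vs. FL-WT together with *Cebpb* and *Irf8*. Of the 9 macrophage transcription factor genes, all tested, 3, 6, 4 and 5 fell in the 4 comparisons, and with median-of-ratios scaling 0, 1, 4 and 5 fell and 2, 1, 2 and 3 rose. Of the 9 monocyte genes 0, 3, 5 and 6 fell, and with that scaling 0, 1, 3 and 6 fell and 3, 3, 1 and 1 rose. *Fn1*, the fibronectin gene, fell from a mean of 31.4 TPM in GC-WT to 6.505 TPM in GC-KO mice, and *Ly6c2*, their most abundant gene, fell from 369.9 to 289.8 TPM, a call that did not hold with that scaling (-0.01, adjusted p = 0.924). *Cx3cr1*, the fractalkine receptor gene, was a DEG with the knockout in flight. Of 11 tested relatives of the members, from the SIGLEC, adhesion receptor, ICAM and SPI families, 3, 8, 8 and 8 fell, and with that scaling 2, 2, 6 and 6 fell and 3, 1, 1 and 1 rose. *Spib* was a DEG in all 4 comparisons, *Siglece* was one with the knockout in flight, *Cd33* was the most abundant over all mice, and *Adgre5*, the gene of CD97, fell from a mean of 35.1 TPM in GC-WT to 12.8 TPM in GC-KO mice.

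Genes of other cell types also differed in flight. Of 8 tested stromal genes 6 fell with flight in wild-type and 8 in Nrf2-KO mice, and 0 in either comparison of genotypes. With median-of-ratios scaling, quantile normalization and the trends removed, 2, 0 and 1 fell in wild-type and 4, 4 and 1 in Nrf2-KO mice, and with the trends removed 3 and 4 rose with the knockout. The summed TPM of the 10 listed stromal genes was 34.6 to 83.3 on the ground and 19.2 to 56.2 in flight in wild-type mice, and 42.3 to 77.4 and 14.4 to 61.3 in Nrf2-KO mice. *Cxcl12*, the chemokine of reticular stromal cells and the most abundant of them, had means of 44.4, 29.1, 42.6 and 22.6 TPM in the same order, and *Col1a1*, a collagen gene, was a DEG in both flight comparisons. Of 4 tested endothelial genes 2 and 3 fell in flight, and 0 in either with each of these scalings. The summed TPM of the 7 listed was 3.94 to 9.15 in GC-WT and 2.43 to 6.36 in FL-WT mice. Of 8 erythroblast genes 7 and 8 fell in flight, and 7 in both with each of these scalings, with *Alas2* of heme synthesis the most abundant, the erythroid factor gene *Klf1* at -1.50 and the erythropoietin receptor gene *Epor* at -1.31 in Nrf2-KO mice, and with *Slc4a1*, the anion exchanger of red cells, at a mean of 438.0 TPM in ground and 193.5 TPM in flown wild-type mice, and 327.8 and 93.1 TPM in Nrf2-KO mice. Of 6 B lineage genes 6, 6, 4 and 4 fell (4, 3, 4 and 2 with median-of-ratios scaling), with *Cd79b* the most abundant over all mice and *Cd79a* a DEG with the knockout in flight. Of 8 neutrophil genes 6 rose with flight in wild-type mice and 5 fell with the knockout in flight (7 and 3 with that scaling). Among the latter was the lactoferrin gene *Ltf* at -2.33, and *S100a9* was the most abundant of the list. With that scaling 7 also rose with flight in Nrf2-KO mice, and 4 and 3 rose with the knockout on the ground and in flight. Of 6 tested dendritic cell genes 3, 1, 1 and 1 fell, and of 3 tested osteoclast genes 1, 1, 1 and 2. With that scaling 2, 1, 1 and 1 dendritic cell genes fell and 0, 0, 2 and 4 rose, while 0 osteoclast genes fell or rose. Their most abundant genes were *Siglech* and *Acp5*, and that of the endothelial list was *Egfl7*. The part of these cells in the lower macrophage genes was not tested.

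**Figure D4:**
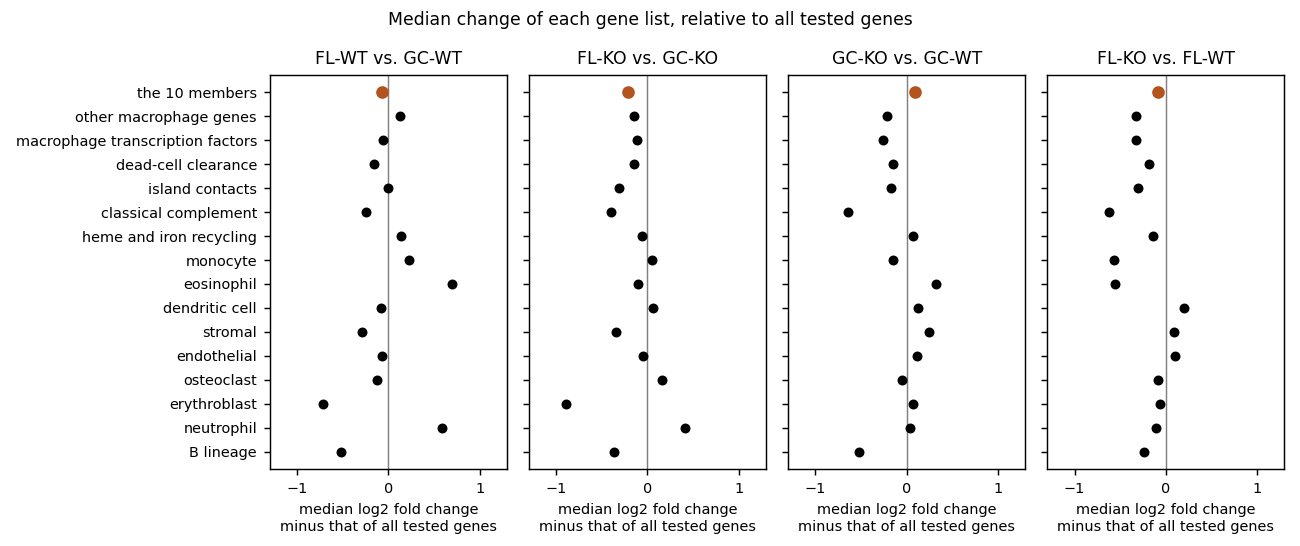
Median log2 fold change of each gene list minus that of all tested genes (x axis) in the 4 comparisons (panels), for the 10 macrophage genes and 15 other lists. The members lie near 0, at -0.06, -0.21, 0.09 and -0.08, while erythroblast genes lie at -0.71 and -0.89 in the flight comparisons and eosinophil genes at 0.70 in FL-WT vs. GC-WT.

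The 10 genes varied together between mice of the same group. After removal of the group means, the 45 pairs had a median Pearson r of 0.72 over the 24 mice, from -0.07 to 0.94, as a description without a test, since all genes of a library share its composition. A high r within groups was common, with a median of 0.54 over 10411 other genes. That r is with the mean standardized value of the 10 genes, not of pairs. Within this, the C1q genes went with each other, at 0.94 for *C1qa* and *C1qc*, 0.89 for *C1qa* and *C1qb* and 0.81 for *C1qb* and *C1qc*. *Mertk*, *Siglec1*, *Spic* and *Vcam1* went together at 0.75 to 0.88. *C1qc* was further from these, at 0.33 with *Mertk* and 0.37 with *Spic*. *Axl* was close to both sets, at 0.90 with *C1qa* and 0.88 with *Siglec1*. *Adgre1* was the furthest from the rest, with a median of 0.27 over the other members, which became 0.42 without FL-KO mouse 9.

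**Figure D5:**
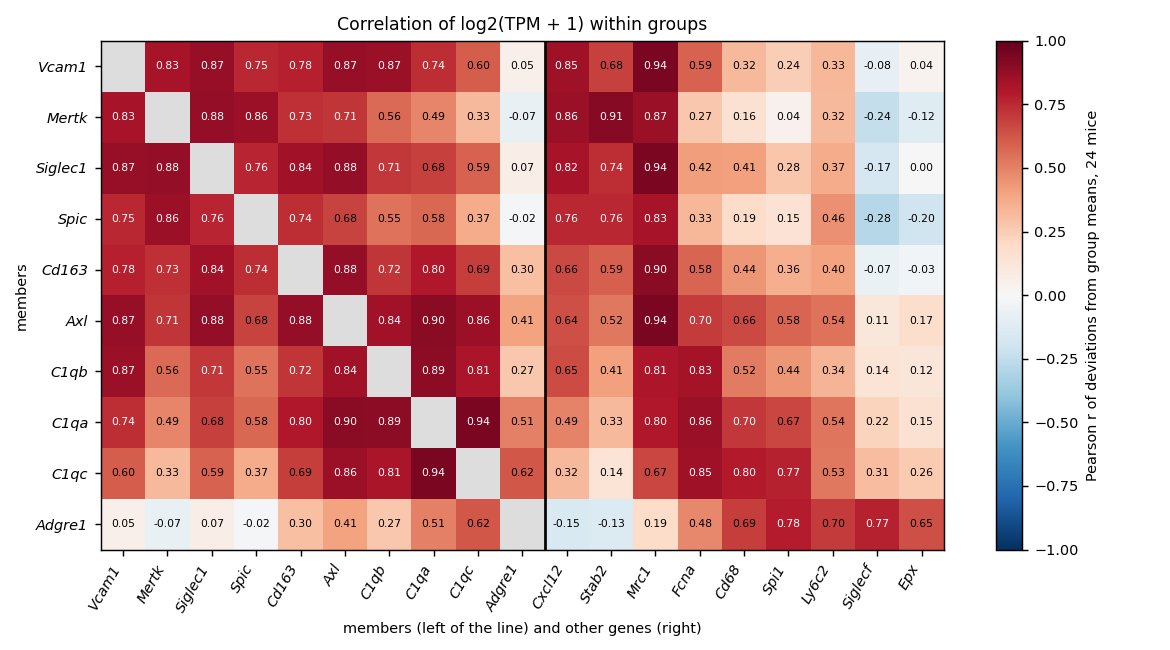
Pearson r of log2(TPM + 1) after removal of group means over 24 mice, between the members (rows) and the members and 9 other genes (columns). *Mertk* has 0.86 with *Cxcl12* and 0.04 with *Spi1*, whereas *C1qc* has 0.32 and 0.77 and *Adgre1* -0.15 and 0.78.

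The following values with other genes were picked for display after they were seen. *Mertk*, *Vcam1*, *Siglec1* and *Spic* had an r of 0.86, 0.85, 0.82 and 0.76 with the stromal chemokine gene *Cxcl12*, and 0.83, 0.82, 0.76 and 0.68 without FL-KO mouse 9. In the same order they had 0.87, 0.94, 0.94 and 0.83 with the macrophage mannose receptor gene *Mrc1*. With *Maf*, of the macrophage transcription factor list, they had 0.87, 0.76, 0.86 and 0.78. *Mertk* had 0.91 with *Stab2*, a scavenger receptor gene of sinusoidal endothelium. The C1q genes had 0.83 to 0.86 with *Fcna*, a macrophage ficolin gene, and *C1qc* had 0.80 with *Cd68* and 0.77 with *Spi1* but 0.32 with *Cxcl12*. *C1qb* did not share this, with 0.65 for *Cxcl12*, 0.52 for *Cd68* and 0.44 for *Spi1*, and a median of 0.51 over 8 stromal and 0.34 over 9 monocyte genes. *Adgre1* had 0.78 with *Spi1* and 0.77 with *Siglecf*, an eosinophil sialic acid receptor gene, and -0.15 with *Cxcl12*. The eosinophil link was not particular, since *Adgre1* had a median of 0.55 over 9 eosinophil genes. Its median was 0.70 over 9 monocyte, 0.60 over 8 neutrophil and 0.60 over 6 B lineage genes. *Adgre1* had 0.65 with *Epx*, the eosinophil peroxidase gene, and here 1 library mattered for the other members. Without FL-KO mouse 9, *Adgre1* had 0.61 with *Epx*, and *Axl* moved from 0.17 to 0.61, *C1qc* from 0.26 to 0.59 and *C1qa* from 0.15 to 0.57.

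The genes most like the members over all 24 libraries were found by the Pearson r with the mean standardized log2(TPM + 1) of the 10 genes, among 10411 genes of at least 1 TPM on average. Their mean was 0.71 SD units for the GC-WT mice, -0.13 for FL-WT, 0.32 for GC-KO and -0.90 for FL-KO mice. *Mrc1*, the macrophage mannose receptor gene, came first at 0.95. Its mean was 4.15 TPM in ground and 2.72 TPM in flown wild-type mice, and 3.58 and 2.48 TPM in Nrf2-KO mice. The integrin gene *Itgb3* (0.94), the chloride channel gene *Clic4* (0.94), *Pfkm* of glycolysis (0.93), *Dtl* (0.93), *Itgb1* (0.93), the nucleoside transporter gene *Slc29a1* (0.93), *Frmd4b* (0.93), *Pitrm1* (0.93) and *Fads3* (0.92) followed. A high r was common in these data, with a median of 0.68 over the candidates and 17.3% of them over 0.8.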

How the data were processed

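RNA-seq of marrow cells covered 24 mice, 6 in each group. Reads were mapped by the authors to mm10 (GRCm38) with STAR (version 2.6.1). RSEM (version 1.3.1) gave TPM, and the deposited table holds the authors' TPM for 54752 genes, with library sums of 999999.5 to 1000001.1. It holds no read counts, so the depth behind a value is unknown and no counting error can be given. Groups were taken from the sample labels, which number the mice but do not say that equal numbers share a batch.

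Differences of log2(TPM + 1) were tested by limma (version 3.58.1, R version 4.3.3) in a fit of all 24 libraries that had one mean for each group, with Benjamini-Hochberg adjustment over the 12373 genes with a TPM above 1 in at least 1 library. The members, the gene lists and the tests were chosen with earlier results of these data known. All 10 members are described. Of each other list, the rule named up to 3 DEGs with the largest change and the most abundant gene. Other genes named for a role were picked after their values were seen. Alternatives were another pseudocount (0.1), filters, scalings, a mean-expression trend, the compared groups alone, other thresholds, removal of GC content and length trends, 5 small RNAs left out, a block by mouse number and each library left out. The steps were tested on simulated data. Leaving FL-KO mouse 9 out of the correlations and the motif AGGAAGT were added after the data were seen. Among the fits with a library left out, the one without FL-KO mouse 9 was singled out after its values were seen. Promoters came from RefSeq on GRCm38.p6.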

Additional observations from a re-analysis of the deposited data

Results flagged for a closer look

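In each of the 40 sets of 6 mice, 1 for each member and group, the most extreme mouse was compared with the others by its gap as a share of the range, judged by Dixon's 95% critical value. This stood out in 2 sets, and chance gives about 1 in 20, or 2 of 40. Both were GC-KO mouse 9. It had 2.71 TPM of *Spic*, with a ratio of 0.688, and 2.56 TPM of *Mertk*, with a ratio of 0.679. The same mouse was the highest of its group in 3 members and the lowest in 2.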

How the results depend on the processing

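With no minimum fold change, the DEG counts of 0 became 5 for flight in wild-type mice, 8 for flight in Nrf2-KO mice, 2 for the knockout on the ground and 5 for the knockout in flight. A pseudocount of 0.1 gave 2 DEGs for flight in Nrf2-KO mice, where 925 of the 12373 tested genes were lower DEGs and 15 were higher. The count of members lower at an adjusted p under 0.1 for flight in wild-type mice, 5, became 3 with no filter, 1 with median-of-ratios scaling, 0 with quantile normalization or after removal of GC content and length trends, 3 with the compared groups alone and 3 at an adjusted p under 0.05. The count of 8 for flight in Nrf2-KO mice became 2 with median-of-ratios scaling, 2 with quantile normalization and 1 after removal of the GC content and length trends. The count of 2 for the knockout on the ground became 0 with a pseudocount of 0.1, no filter, median-of-ratios scaling, quantile normalization, the trends removed or an adjusted p under 0.05, 1 with the compared groups alone and 4 without the 5 small RNAs. The count of 5 for the knockout in flight became 0 with either scaling and 1 with the trends removed. The cause was not tested. Leaving out a library gave 3 to 8, 7 to 9, 0 to 3 and 5 to 7 in these comparisons, with 8 without FL-WT mouse 7, 3 without GC-WT mouse 6, 7 or 8 or FL-WT mouse 3, 5 or 6, 3 for the knockout on the ground without GC-WT mouse 10, and 0 there without GC-WT mouse 6, 7 or 8 or GC-KO mouse 1, 2 or 4. The shares of all tested genes in the fits with a library left out are not given. The median relative to all genes moved by less than the spread between libraries, 0.244 on the log2 scale, in each alternative. That spread is wider than each relative median itself, so this does not show that they were stable. The relative median turned to -0.11 for the knockout on the ground with no filter and to 0.12 for the knockout in flight with the trends removed. With no filter the member medians of -0.50 (FL-KO vs. GC-KO) and -0.33 (FL-KO vs. FL-WT) stood beside -0.06 and -0.01 for all genes.

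The sign turned in 47 of 420 values, and in 14 of these the value was called before or after. With median-of-ratios scaling the latter were *C1qa* (0.27) and *Adgre1* (0.24) for the knockout on the ground and *Adgre1* (0.0055) for the knockout in flight, and with quantile normalization the same, at 0.27, 0.28 and 0.068. With the trends removed they were *Siglec1* for flight in Nrf2-KO mice (0.11), *Cd163* (0.36), *Adgre1* (0.20), *Axl* (0.18) and *Siglec1* (0.30) for the knockout on the ground, and *Cd163* (0.31), *Axl* (0.19) and *Siglec1* (0.58) for the knockout in flight. Single calls were lost for flight in wild-type mice without GC-WT mouse 6, 7 or 8 or FL-WT mouse 3, 5 or 6 (*Axl* and *Spic*, the latter also without GC-WT mouse 5 or FL-WT mouse 8). For flight in Nrf2-KO mice, *Mertk* was lost without GC-KO mouse 4, 9 or 11 or FL-KO mouse 1, 2, 4 or 11. For the knockout on the ground, *Axl* and *Siglec1* were lost without GC-WT mouse 6, 7 or 8 or GC-KO mouse 1, 2 or 4, *Axl* also without GC-KO mouse 9 and *Siglec1* without GC-WT mouse 5 or GC-KO mouse 11.

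Ground and flight mice of a genotype share mouse numbers. The deviations of same-numbered mice had an r of -0.026 to 0.273 over 12 pairs, over 0.1 in 7, and 3 mice correlated best with their own number, so the numbers were not taken to pair the mice. With the number as a block, 7 members fell for flight in wild-type mice and 9 for flight in Nrf2-KO mice, 0 were DEGs, and the interaction again had 0. The block raised the counts of all genes too. At an unadjusted p under 0.05 in limma, 6056 and 7206 of the 12373 tested genes were lower with it, beside 5155 and 6456 without. In the same order, 227 and 49 were higher with it, and 136 and 36 without.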
